A study of Mus musculus with 14 samples.

Results

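The 38 genes described here encode the protein-folding machinery of the endoplasmic reticulum (ER), the channel and peptidase that receive nascent secretory proteins, and the sensors and targets of the unfolded protein response. They were chosen by symbol, all 38 were found among the 17552 genes of the deposited table, and all 38 were among the 13291 genes with at least 100 expected counts in the groups together. They comprised 3 stress sensors, 5 transcription factors and targets, 14 chaperones and folding enzymes, 4 genes of ER-associated degradation, 8 genes of the translocon and 4 genes of the signal peptidase.

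Liver poly(A) RNA came from male Apoe-deficient mice of the C57BL/6 strain by the labels and the C57BL/6J background by the study's methods, aged 8 weeks by the labels and fed a Western diet. The 7 control libraries received the diet alone, and the 7 erythrodiol libraries the diet with erythrodiol, a triterpene alcohol of the olive. Its dose of 10 mg/kg is per kg of mouse by the study's methods, and not the content of the diet. The labels give 8 weeks of feeding, while the study's methods give a longer period. The age in the labels is near the age that the methods give for the mice entering the experiment. Livers were taken after the feeding, and so from older animals. Each library is a pool of RNA from a few animals, both groups lack apolipoprotein E in every tissue, and neither a group with the gene nor a group on a standard diet is part of the comparison, so that the values describe erythrodiol against the Western diet in this model alone.

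Proteins bound for secretion enter the ER through the Sec61 channel, lose their signal peptide to the signal peptidase, and fold with the help of chaperones and disulfide isomerases. When unfolded protein accumulates, the sensors IRE1, PERK and ATF6 start a program that raises chaperones, slows translation and sends misfolded proteins to degradation. Hepatocytes, which secrete albumin, clotting factors and lipoproteins, carry a large ER and rely on this machinery.

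Each gene has 1 deposited expected count for control and 1 for erythrodiol, the sum over the libraries of that group. The totals over all genes were 122889032 for control and 124686047 for erythrodiol. Clean reads ranged from 34856340 to 55244294 per control library and from 47669656 to 48058606 per erythrodiol library. Mapping to genes took 64.3% to 81.4% of clean reads in control libraries and 73.0% to 76.1% in erythrodiol libraries, and the lowest share belonged to control replicate 3. Without values per library, no result could be recomputed without that replicate. A single control library gave between 9.12% and 17.3% of the group's total, and a single erythrodiol library between 13.9% and 14.6%. Differences between groups therefore have no replicate check and carry no test, the 95% intervals given in brackets cover counting error only, and the spread between pools is not in them. In bulk RNA, fewer cells of a type and less RNA per cell cannot be told apart.

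A log2 ratio below is that of the erythrodiol over the control count after division by each group's total. A gene is called higher or lower where it passed 1.2-fold. The median log2 ratio over the 13291 genes was 0.16, and it rose with the deposited transcript Length. In the shortest of 20 Length classes, 333 to 915 bases, the median was -0.30, and in the longest, 7428 to 26655 bases, it was 0.35. Each gene was therefore also set against the median of its own Length class of 661 to 668 genes. This difference is called its ratio relative to like Length.

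Of the 38 genes, 14 were higher and 7 were lower, with a median log2 ratio of 0.20. Over all genes tested, 33.7% were higher and 11.4% were lower, so that the share of genes called higher, 36.8%, was near that of all genes and the share called lower, 18.4%, was above it. The calls did not spread evenly over the roles. All 3 sensors and all 4 degradation genes were higher, 5 of 14 chaperones were higher and 2 lower, and no translocon or signal peptidase gene was higher while 5 of 12 were lower. When the median gene was set to 0, 9 genes were higher and 8 lower, and when each group was scaled by its sum of counts per base, 25 were higher and 6 lower. At 1.5-fold, 3 genes were higher and 6 lower, or 7.89% and 15.8%, against 2.55% and 3.14% of all genes by total counts. Relative to like Length only 1 was higher, Asns, and 1 lower, Spcs1, or 2.63% each, against 1.06% and 3.57%. The lower gene depended on the Length reference. With 10 classes, Sec61g at -0.64 and Sec11c at -0.59 passed 1.5-fold and Spcs1 at -0.49 did not. With the 500 nearest genes, Sec61g and Spcs1 both stood at -0.57, short of it. None of the 38 passed 2-fold in either direction, against 0.218% of all genes higher and 0.549% lower.

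Relative to like Length, 10 of the 38 were higher and 8 lower, with a median of 0.04. These are shares of 26.3% and 21.1%, against 9.62% and 17.6% of all genes. Genes called higher or lower by total-count scaling numbered 21, and all 21 kept their direction relative to like Length, 15 of them past 1.2-fold. The sign of 7 other genes turned relative to like Length, namely Hspa5, Hsp90b1, Canx, Ssr1, Ssr3, Spcs2 and Spcs3.

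**Figure D1:**
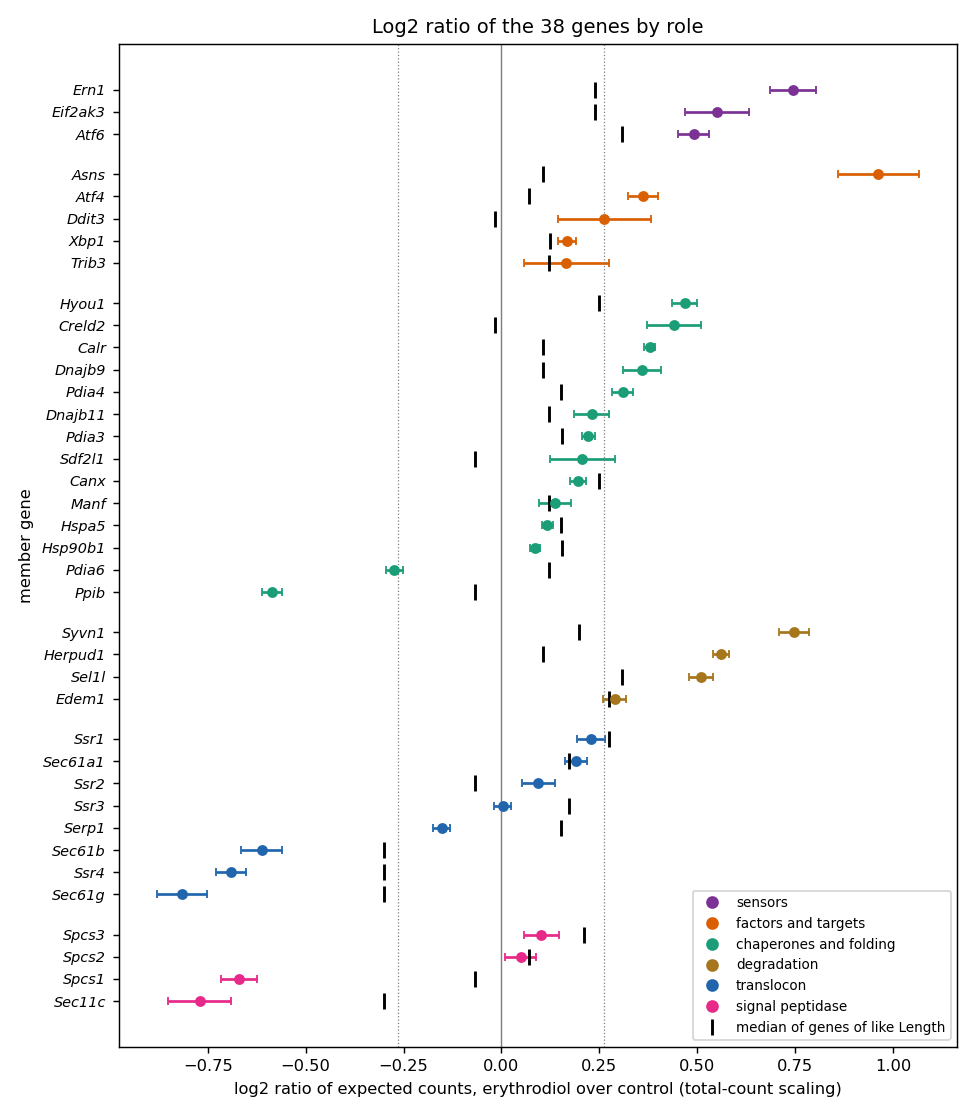
Log2 ratio of erythrodiol over control for each of the 38 genes (points, with 95% counting intervals), grouped by role, with the median of genes of like Length (black ticks) and the 1.2-fold limits (dotted lines). The 3 sensors and 4 degradation genes lie to the right of their ticks, and Sec61b, Sec61g, Ssr4, Spcs1, Sec11c, Ppib and Pdia6 lie to the left of both their ticks and the lower limit.

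The 3 sensors were higher with erythrodiol, at a median log2 ratio of 0.55. Ern1, which encodes the kinase and ribonuclease IRE1, lies at chr11:106397620-106487796 of GRCm38. It had 3842 expected counts in control and 6533 with erythrodiol, a log2 ratio of 0.74 (0.69 to 0.80). Among the 662 genes of like Length, 655 had a lower ratio. Eif2ak3, which encodes PERK, the kinase that phosphorylates eIF2α, had 2020 and 3002 counts, a log2 ratio of 0.55 (0.47 to 0.63). Atf6, whose product is cut in the Golgi to release a transcription factor, had 8667 and 12360 counts, a log2 ratio of 0.49 (0.45 to 0.53).

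All 3 sensor transcripts are long, from 3976 to 7334 bases, and genes of like Length had medians of 0.24 and 0.31. Relative to them, Ern1 stood at 0.51 and Eif2ak3 at 0.31, while Atf6, at 0.18, did not pass 1.2-fold. The sensors took 0.0118% of all counts in control and 0.0176% with erythrodiol. Within the control group, counts per base scaled to 1000000 over all genes gave levels of 12.9 for Ern1, 6.58 for Eif2ak3 and 15.8 for Atf6, the order of levels among the 3 sensors being Atf6, Ern1 and Eif2ak3.

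Of the 5 transcription factors and targets, Asns and Atf4 were higher and the other 3 did not pass 1.2-fold. Asns encodes asparagine synthetase, a target of ATF4, and lies at chr6:7675165-7693209. It had 1134 counts in control and 2243 with erythrodiol, which gave the highest log2 ratio of the 38 genes, 0.96 (0.86 to 1.07), above 662 of 668 genes of like Length. Atf4, the factor translated when eIF2α is phosphorylated, had 9884 and 12880 counts, a log2 ratio of 0.36 (0.32 to 0.40). Its ratio relative to like Length was 0.29.

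Ddit3, which encodes the factor CHOP, had 1044 and 1271 counts, a log2 ratio of 0.26 (0.14 to 0.38) that lay just under the 1.2-fold limit and stood 0.28 above genes of like Length. Xbp1, whose mRNA is spliced by IRE1, had 26701 and 30420 counts, a log2 ratio of 0.17 (0.14 to 0.19). Trib3, a pseudokinase downstream of ATF4 and CHOP, had 1289 and 1467 counts, a log2 ratio of 0.17 (0.06 to 0.27). Xbp1 and Trib3 both stood 0.04 above genes of like Length. The deposited Xbp1 count does not separate its spliced from its unspliced form, which is not analysed here.

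The 14 chaperones and folding enzymes had a median log2 ratio of 0.21, and 0.09 relative to like Length. Those higher by total-count scaling were Hyou1, Creld2, Calr, Dnajb9 and Pdia4, and the lower were Ppib and Pdia6. Hspa5, which encodes BiP, the Hsp70 of the ER and a common readout of the response, had 70454 counts in control and 77541 with erythrodiol, a log2 ratio of 0.12 (0.10 to 0.13). Hsp90b1, the Hsp90 of the ER, had 86956 and 93613 counts, a log2 ratio of 0.09 (0.07 to 0.10). Both lay below the median of all genes, and relative to like Length they stood at -0.03 and -0.07. The sign of either therefore depends on the reference taken, and no direction is given for them.

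Calr encodes calreticulin, the lectin chaperone of the ER lumen. It had the highest level per length of the 38 genes in each group, and 74138 and 97820 counts gave a log2 ratio of 0.38 (0.37 to 0.39). Its membrane-bound partner calnexin, encoded by Canx, had 37198 and 43244 counts, a log2 ratio of 0.20 (0.18 to 0.22). Relative to like Length, Calr stood at 0.27 and Canx at -0.05, and only Calr passed 1.2-fold.

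Hyou1, a nucleotide exchange factor of BiP, had 13345 and 18727 counts, a log2 ratio of 0.47 (0.44 to 0.50). Creld2, a gene of the ER lumen known to be induced by ER stress, had 2984 and 4110 counts, a log2 ratio of 0.44 (0.37 to 0.51) that exceeded 644 of 667 genes of like Length. Dnajb9, a J-domain co-chaperone of BiP, had 6028 and 7840 counts, a log2 ratio of 0.36 (0.31 to 0.41). The other J-domain gene, Dnajb11, stood at 0.23, and Sdf2l1, which acts with it, at 0.21. Of these 3 genes, only Dnajb9 passed 1.2-fold by total-count scaling, while relative to like Length Sdf2l1 passed at 0.27 and Dnajb9, at 0.25, did not. Manf, a secreted protein of stressed ER, had 9177 and 10242 counts, a log2 ratio of 0.14 (0.10 to 0.18), and stood 0.02 above genes of like Length.

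The 3 protein disulfide isomerases differed. Pdia4 had 20735 and 26082 counts, a log2 ratio of 0.31 (0.28 to 0.34). Pdia3, which works with calreticulin and calnexin on glycoproteins, had 51602 and 61063 counts, a log2 ratio of 0.22 (0.20 to 0.24). Pdia6 alone was lower, with 34111 and 28640 counts and a log2 ratio of -0.27 (-0.30 to -0.25), an interval that holds the 1.2-fold limit. Its transcript of 2125 bases lies in a Length class with a median of 0.12, and relative to like Length it stood at -0.40, with 60 of 661 genes lower.

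Ppib encodes cyclophilin B, a prolyl isomerase of the ER, at chr9:66060169-66066629. It had 31948 counts in control and 21599 with erythrodiol, a log2 ratio of -0.59 (-0.61 to -0.56), and stood at -0.52 relative to like Length. The study used Ppib together with Tbp as reference genes for its RT-qPCR, which was run on single animals and is not analysed here. Ppib overlaps Snx22 in RefSeq, and the fractions of a count of these genes add to whole counts. The 237 and 314 counts given to Snx22 were few beside those of Ppib, and the log2 ratio of the summed counts was -0.58.

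All 4 degradation genes were higher, at a median log2 ratio of 0.54. Syvn1 encodes the ubiquitin ligase HRD1 at chr19:6046576-6053718, and had 8878 counts in control and 15118 with erythrodiol, a log2 ratio of 0.75 (0.71 to 0.78). Its partner Sel1l had 15708 and 22692 counts, a log2 ratio of 0.51 (0.48 to 0.54). Herpud1, a membrane protein that assembles with this ligase, lies at chr8:94386429-94395371 and had 30335 and 45418 counts, a log2 ratio of 0.56 (0.54 to 0.58). Edem1, which directs misfolded glycoproteins to degradation, had 16675 and 20675 counts, a log2 ratio of 0.29 (0.26 to 0.32).

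Relative to like Length, Syvn1 stood at 0.55, above 655 of 667 genes, and Herpud1 at 0.46, above 651 of 668. Sel1l stood at 0.20 and Edem1 at 0.02, neither past 1.2-fold, since their transcripts of 6258 and 5712 bases belong to classes with medians of 0.31 and 0.27. The 4 genes took 0.0583% of all counts in control and 0.0833% with erythrodiol.

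The promoters of these genes were read for the elements through which the response is known to act, because the genes share regulators and moved unequally. RefSeq promoters of GRCm38.p6, from 250 bases before to 50 after the start, were matched for 31 of the 38 genes. Atf6, Manf, Hyou1, Sec61a1, Ssr2, Sec11c and Spcs3 had no match. The ER stress element (ERSE) was searched on both strands as CCAAT, any 9 bases, then CCACG. It was present in 7 of the 31 promoters, and in 39 of 32851 promoters, or 0.119%, overall. The matches follow with 10 flanking bases on each side, read on the strand of the gene, with the element in capitals. Those of Calr and Creld2, and the later of the pair in Hsp90b1, are in the reverse orientation.
Hspa5, chr2:34772015-34772053, plus strand: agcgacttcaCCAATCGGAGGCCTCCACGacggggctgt
Calr, chr8:84847065-84847103, minus strand: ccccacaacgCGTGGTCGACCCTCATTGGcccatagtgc
Hsp90b1, chr10:86705628-86705666, minus strand: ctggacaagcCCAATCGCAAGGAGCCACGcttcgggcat
Hsp90b1, chr10:86705523-86705561, minus strand: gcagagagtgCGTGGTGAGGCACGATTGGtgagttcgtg
Canx, chr11:50325790-50325828, minus strand: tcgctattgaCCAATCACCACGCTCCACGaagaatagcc
Pdia6, chr12:17266481-17266519, plus strand: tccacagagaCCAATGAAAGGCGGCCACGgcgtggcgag
Creld2, chr15:88819510-88819548, plus strand: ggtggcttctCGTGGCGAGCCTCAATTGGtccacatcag
Syvn1, chr19:6046522-6046560, plus strand: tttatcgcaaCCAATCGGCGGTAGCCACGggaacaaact

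Genes with this element ran from Pdia6, at a log2 ratio of -0.27, to Syvn1, at 0.75. Their median was 0.20, against 0.23 for the matched genes without it. Among the genes tested that are no members, 13 held the element, 6 of them higher and 1 lower, with a median of 0.25.

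The ERSE-II element, searched as ATTGG, any base, then CCACG, was in 12 promoters of the table, or 0.0365%, and in 2 of the 31, Herpud1 and Dnajb11. The amino acid response element (CARE), searched as TGATG, any base, then AA, was in 3.97% of promoters and in Trib3, Asns and Herpud1. The UPRE, searched as TGACGTGG, was in 0.676% of promoters and in none of the 31. CCACG alone, which is part of the ERSE and of ERSE-II, was in 32.8% of promoters and in 23 of the 31. Of the 31, only Herpud1 had both the ERSE-II and the CARE, and its whole promoter is shown with the CARE, in reverse orientation, and then the ERSE-II in capitals. The matches of Asns, the gene with the highest log2 ratio, and of Trib3, with the same element and a log2 ratio of 0.17, are set under it, that of Trib3 lying after the start and in reverse orientation.
Herpud1, chr8:94386179-94386478, plus strand: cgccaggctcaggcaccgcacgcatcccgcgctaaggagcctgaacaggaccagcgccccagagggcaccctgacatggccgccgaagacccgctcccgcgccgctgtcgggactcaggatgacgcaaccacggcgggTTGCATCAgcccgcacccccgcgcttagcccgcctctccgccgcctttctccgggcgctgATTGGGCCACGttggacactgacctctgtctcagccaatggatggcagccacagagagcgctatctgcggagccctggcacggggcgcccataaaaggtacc
Asns, chr6:7693215-7693242, minus strand: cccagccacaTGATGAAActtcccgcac
Trib3, chr2:152344029-152344056, minus strand: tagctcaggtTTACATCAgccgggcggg

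Such a match is a description of the letters in this window and not of binding. Of the genes tested that are no members, 305 held the CARE, with a median log2 ratio of 0.16, the same as over all genes.

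The 12 genes of the translocon and signal peptidase divided by transcript Length. The 6 with transcripts under 1500 bases were Sec61b, Sec61g, Ssr2, Ssr4, Sec11c and Spcs1, with a median log2 ratio of -0.68, and the 6 longer ones had a median of 0.08. Of the short genes 5 were lower and Ssr2 was not, while none of the longer genes passed 1.2-fold. The short genes took 0.0397% of all counts in control and 0.0278% with erythrodiol, and the longer ones 0.0962% and 0.0979%. In the shortest Length class of all genes, 53.5% were lower, and in the next, 917 to 1211 bases, 33.7%. Relative to like Length, the short genes stood at a median of -0.43 and the longer ones at -0.08.

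The Sec61 channel has a pore subunit, encoded by Sec61a1, and small β and γ subunits, encoded by Sec61b and Sec61g. Sec61a1 had 18551 counts in control and 21474 with erythrodiol, a log2 ratio of 0.19 (0.16 to 0.22). Sec61b, at chr4:47474661-47483233, had 7276 and 4829 counts, a log2 ratio of -0.61 (-0.67 to -0.56). Sec61g, at chr11:16501638-16508484, had 5482 and 3158 counts, a log2 ratio of -0.82 (-0.88 to -0.75), the lowest of the 38 genes. The pore subunit thus stood beside genes of its Length, at 0.02, while the small subunits lay at -0.31 and -0.52 relative to theirs. Of the 667 genes in the Length class of the small subunits, 160 had a lower ratio than Sec61b and 72 than Sec61g. The lower quartile of that class was -0.60, near the ratio of Sec61b.

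The ratio of subunits within a group is free of any scaling between groups. The level per length of Sec61b over Sec61a1 was 2.16 in control and 1.24 with erythrodiol, a log2 change of -0.80 (-0.86 to -0.74). That of Sec61g over Sec61a1 was 1.19 and 0.592, a log2 change of -1.01 (-1.08 to -0.94). With each gene taken relative to like Length, these changes were -0.33 and -0.53.

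Sec61g has near copies, and its count is uncertain to that extent. Gm4184, a pseudogene at chr10:89878250-89878573, had 160.2 counts in control and 63.5 with erythrodiol, and LOC102637269, a pseudogene at chr1:60522654-60523086, had 16.9 counts and 0, at least 5.71-fold lower with 3 counts set for the group at 0, a bound that leaves out the counting error of the control, while the upper limit of the exact interval of its log2 ratio was -2.07. The fractional counts of these and Sec61g summed to whole numbers, 5659 and 3221, and the log2 ratio of the sums was -0.83 (-0.90 to -0.77). Of 100-base windows of the annotated transcripts, 15.7% in Sec61g and 8.09% in Sec61b also occurred in transcripts of another gene. In each of the other 36 genes the share was at most 1.26%.

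The translocon-associated protein (TRAP) complex, which binds beside the channel, has 4 subunits, encoded by Ssr1 to Ssr4. Ssr4, at chrX:73787023-73790828, was lower, with 13963 and 8779 counts and a log2 ratio of -0.69 (-0.73 to -0.65). Among 667 genes of like Length, 120 had a ratio below that of Ssr4. Ssr1 had 11751 and 13977 counts, a log2 ratio of 0.23 (0.19 to 0.26). Ssr2 stood at 0.09 (0.05 to 0.14) and Ssr3 at 0.00 (-0.02 to 0.02), and Ssr2, with a transcript of 1085 bases, was the only short gene of the 6 above genes of like Length, by 0.16. The level of Ssr4 over Ssr1 was 8.19 in control and 4.33 with erythrodiol, a log2 change of -0.92 (-0.97 to -0.87), against -0.14 for Ssr2 and -0.23 for Ssr3 over Ssr1. With each gene taken relative to like Length, the change of Ssr4 was smaller, -0.35, that of Ssr3 was -0.13, and that of Ssr2 turned to 0.21.

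Serp1, a small membrane protein that associates with the channel under stress, had 35122 and 32070 counts, a log2 ratio of -0.15 (-0.17 to -0.13). Though its transcript of 2457 bases is not short by the limit used, 89 of 665 genes of like Length had a lower ratio, and it stood at -0.30 relative to them. On the scale of counts per base its level was 191 in both groups.

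The signal peptidase cuts signal peptides with a catalytic subunit, encoded by Sec11c or its paralog, and the accessory subunits encoded by Spcs1, Spcs2 and Spcs3. Spcs1, at chr14:30999826-31001666, had 9940 counts in control and 6338 with erythrodiol, a log2 ratio of -0.67 (-0.72 to -0.62), and lay at -0.60 relative to like Length, the lowest of the 38 genes by that reference. Sec11c had 3346 and 1990 counts, a log2 ratio of -0.77 (-0.85 to -0.69), with 91 of 667 genes of like Length lower. The paralog Sec11a, which is no member, had 5550 and 4324 counts. Its log2 ratio was -0.38, and -0.31 relative to like Length. Spcs2 stood at 0.05 (0.01 to 0.09) and Spcs3 at 0.10 (0.06 to 0.15). The level of Spcs1 over Spcs3 was 4.17 and 2.44, a log2 change of -0.77 (-0.84 to -0.71), and that of Sec11c over Spcs3 was 1.86 and 1.02, a log2 change of -0.87 (-0.96 to -0.78). The ratio of Spcs2 to Spcs3 changed by -0.05, with an interval from -0.11 to 0.01 that includes 0. Taken relative to like Length, these changes were smaller for Spcs1, -0.49, and for Sec11c, -0.36, and for Spcs2 the change turned to 0.09.

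**Figure D2:**
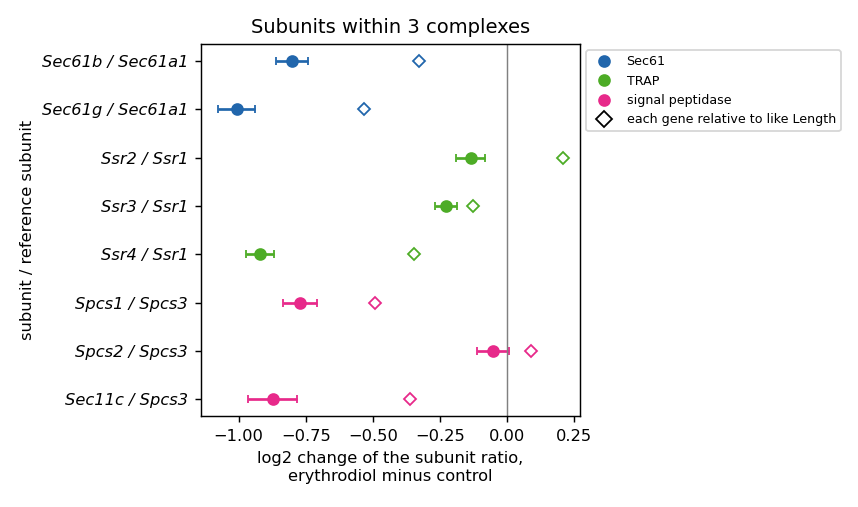
Log2 change, erythrodiol minus control, of the ratio of a subunit to the reference subunit of its complex (filled points, with 95% counting intervals), and the same with each gene taken relative to like Length (open diamonds). Sec61g over Sec61a1 changed most, by -1.01, and Spcs2 over Spcs3 least, by -0.05.

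**Figure D3:**
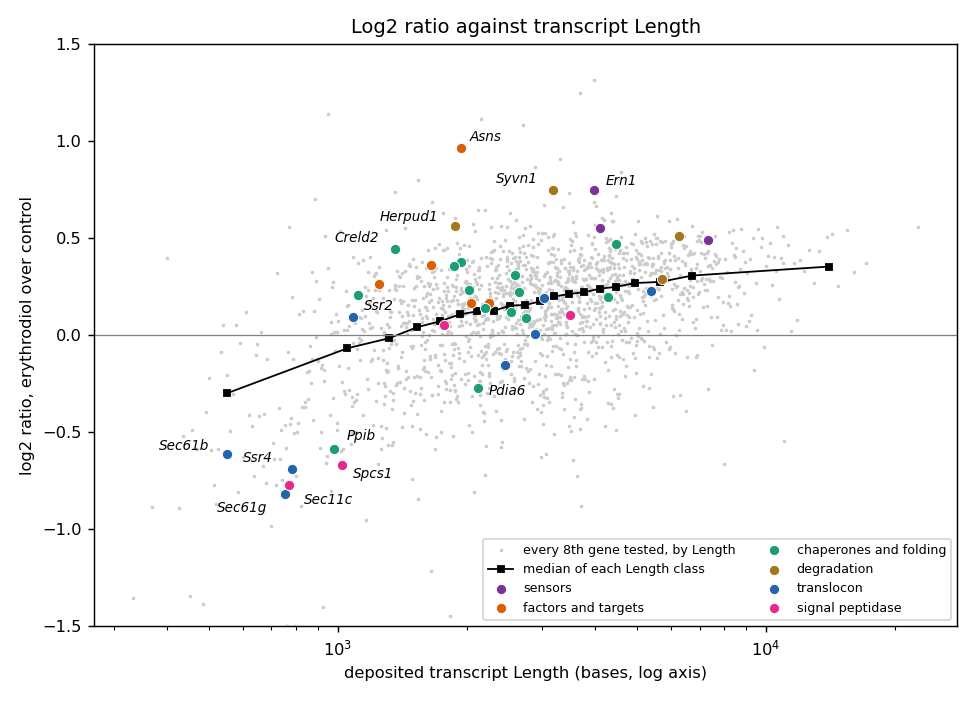
Log2 ratio of erythrodiol over control against deposited transcript Length in bases (log axis) for the 38 genes (coloured by role) and a sample of all genes tested (grey, values beyond 1.5 not drawn), with the median of each of 20 Length classes (black line). The line runs from -0.30 to 0.35, and Sec61b, Sec61g, Ssr4, Sec11c, Spcs1 and Ppib lie below it at its short end, while Ern1, Syvn1 and Asns lie above it.

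Levels per length spanned a wide range within the set. In the control group they ran from 6.58 for Eif2ak3 to 510 for Calr, and in the erythrodiol group from 10.5 for Trib3 to 737 for Calr. In control, Calr was followed by Ppib at 436, Hsp90b1 at 421 and Hspa5 at 371, and with erythrodiol by Hsp90b1 at 497, Hspa5 at 447 and Herpud1 at 353. Ppib went from rank 299 to rank 406 among all genes, and Herpud1 from 538 to 372. The scale of counts per base lifts the median log2 ratio of all genes by 0.15 over that of total counts, so that levels were compared within a group and changes between groups were taken from the log2 ratios. With this scaling Serp1 changed sign, to 0.00, and the translocon median went from -0.07 to 0.08.

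**Figure D4:**
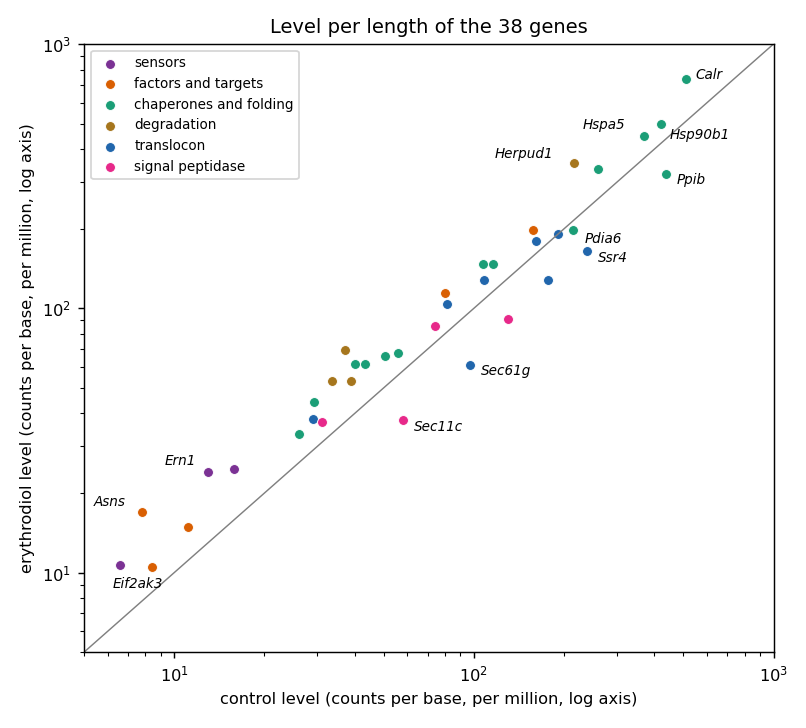
Level per length (counts per base, scaled to 1000000 over all genes, log axes) in control and with erythrodiol for the 38 genes, coloured by role, with the line of equal levels. Calr, at 510 and 737, is highest, and Ppib, Ssr4, Sec61g and Sec11c lie below the line.

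Other genes of the same pathways were taken from lists, 98 of whose 99 genes passed 100 counts. Of the 98, 38 were higher and 13 lower, and relative to like Length 15 were higher and 18 lower. Over all genes tested, 33.7% were higher and 11.4% lower, and relative to like Length 9.62% and 17.6%. The same shares stand beside each list below. Among 24 other folding genes, 9 were higher and 2 lower, with a median of 0.19, and relative to like Length 2 were higher and 3 lower. At the ends were Ganab, a glucosidase of glycoprotein folding, at 0.41, Uggt1, the glucosyltransferase that senses misfolded glycoproteins, at 0.35, and Cnpy2 and Fkbp7, at -0.61 and -0.41. Among 15 other degradation genes, 5 were higher and 1 lower, with a median of 0.20, and relative to like Length 1 was higher and 3 lower. Derl3 and Edem2 stood highest, at 0.68 and 0.36, and the lowest were Selenok, at -0.60, and Derl2, at -0.21, which did not pass 1.2-fold.

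Among 16 other genes of translocation, 7 were higher and 4 lower, with a median of 0.23, and relative to like Length 2 were higher and 4 lower, with a median of 0.01. The signal recognition particle, which brings ribosomes to the channel, held both signs. Its small subunits Srp9 and Srp14 stood at -0.82 and -0.57, Srp19 at -0.42 and Srp54a at -0.17. Srp68 and Srp72 of the particle stood at 0.36 and 0.33, and the receptor gene Srpr at 0.47. Relative to like Length, Srp9 stood at -0.80, Srp14 at -0.27, Srp19 at -0.12 and Srp54a at -0.32. By the same reference Srp68 stood at 0.20, Srp72 at 0.11 and Srpr at 0.29. Sec61a2, the paralog of the pore gene, stood at 0.42. Among 12 genes of the oligosaccharyl transferase, which glycosylates proteins as they enter, 1 was higher and 4 lower, with a median of 0.08, and relative to like Length 1 was higher and 2 lower. Rpn2, at 0.26, and Stt3a, at 0.22, were highest, and Tmem258, at -0.65, and Tusc3, at -0.45, lowest.

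Of 31 other stress-response genes, among them targets of ATF4 and the proteases that cut ATF6, 16 were higher and 2 lower, with a median of 0.30, and relative to like Length 9 were higher and 6 lower. Fgf21, a liver hormone and known target of ATF4, had 1207 counts in control and 2695 with erythrodiol, a log2 ratio of 1.14. Phgdh, the entry enzyme of serine synthesis, had 271 and 586 counts, a log2 ratio of 1.09. They stood at 1.21 and 0.99 relative to like Length. The lower genes were Slc7a11, a cystine transporter, at -0.41 with 120 and 91.5 counts, and Cth, which makes cysteine from cystathionine, at -0.39.

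**Figure D5:**
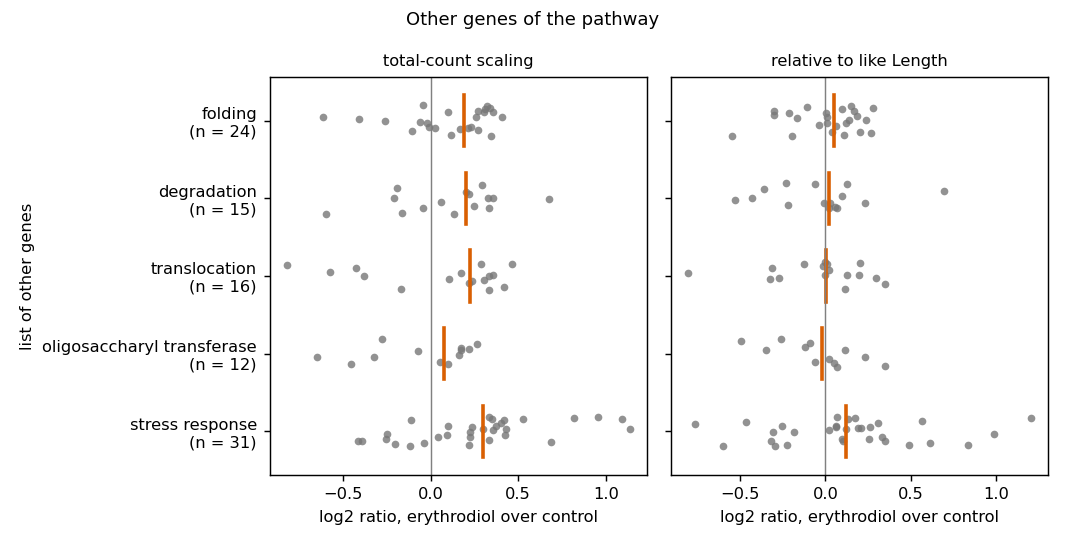
Log2 ratio of the 98 other genes of the pathway by list, with total-count scaling on the left and relative to like Length on the right (grey points are genes, orange bars medians, vertical scatter has no meaning). The medians run from 0.08 to 0.30 on the left and from -0.02 to 0.12 on the right, with genes of the stress-response list reaching above 1.

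Larger sets were taken from the ER terms of the deposited annotation. Without the members, 52 genes of the response to ER stress had a median of 0.24, with 24 higher and 1 lower, 76 genes of protein folding a median of 0.11, with 17 higher and 10 lower, and 529 genes of the ER membrane a median of 0.15, with 166 higher and 63 lower. The balance of calls turned relative to like Length, as it did over all genes, from 33.7% higher and 11.4% lower to 9.62% and 17.6%. Of the ER stress genes 4 were then higher and 7 lower (median 0.08), of the protein folding genes 7 and 17 (median -0.05), and of the ER membrane genes 59 and 101 (median 0.00).

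The liver label was checked against cell type markers. The 6 hepatocyte markers, albumin and transthyretin among them, summed to a level of 106780 in control and 114201 with erythrodiol. Such sums are on the scale of counts per base, which lifts the log2 ratios of all genes by 0.15, so that changes are read from the log2 ratios. Those of the hepatocyte markers ran from -0.40 to 0.36, with a median of 0.06, 3 above 0 and 3 below. All 6 Kupffer cell markers were lower, from -1.07 for Marco to -0.48 for Timd4, and their summed level was 694 in control and 476 with erythrodiol. Of 5 bile duct markers, 4 were lower, and the summed levels were 127 and 93.7. The 5 endothelial and 5 stellate markers summed to 86.2 and 89.9 and to 268 and 271. Their median log2 ratios were 0.14 and 0.04, and relative to like Length -0.19 and -0.24. By that reference 4 of the endothelial and all 5 stellate markers were below 0.

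Plasma cells and pancreatic acinar cells are rich in ER. The defining plasma cell marker Tnfrsf17 had 4 counts in control and 0 with erythrodiol, Jchain had 390 and 314, and Derl3, which is in both this list and the degradation list, was the only one of the 5 plasma cell markers with 100 counts that was higher. Of 9 acinar markers, 3 passed 100 counts, all 3 with a log2 ratio below 0. The list summed to levels of 22.0 and 17.5, of which Cela1 gave 18.7 and 14.5. The markers under 100 counts went both ways. Ctrb1 had 8 counts in control and 42 with erythrodiol, Cpa1 2 and 15, and Clps 4 and 5. Cpb1 had 11 and 3, Prss2 15 and 8, and Pnlip 11 and 10. The part of any of these cell types in the results was not tested.

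Transcripts that the authors' assembly added to the annotation were not split by group. Such transcripts, with predicted coding potential, were assigned to 5 of the 38 genes, Atf6, Eif2ak3, Hyou1, Ssr4 and Syvn1, or 13.2%, against 35.8% of the 13291 genes. They had from 7 exons in Ssr4 to 26 in Hyou1.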

How the data were processed

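The authors sequenced poly(A) RNA of liver pools and counted reads on reference transcripts joined, by the study's methods, with the added coding transcripts. They deposited, for each gene, 1 expected count per group (RSEM estimated counts, summed over the 7 libraries and not normalized) with a transcript length. Bowtie2 and RSEM, and HISAT and StringTie for added transcripts, are named in the submitters' processing notes without versions. Clean read counts and mapping rates in percent were deposited per library. The table's columns of the authors' own comparison (log2 ratio, p-values, q-values and direction) were not used, nor were SNP and splicing files.

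The gene set and lists were chosen with earlier results of these data known. Named genes are all 38 members, rows sharing a member's product name, and the 2 highest and 2 lowest genes of each other list of the pathway. Snx22, Sec11a, Srp19, Srp54a, Srp68, Srp72 and the acinar markers were named after their values were seen. Counts were divided by group totals, and log2 ratios taken without a pseudocount. Intervals are exact conditional binomial intervals at 95%, or normal ones for subunit ratios. Like Length means 20 classes of Length over genes with at least 100 counts. Levels are counts per base scaled to 1000000. Windows of 100 bases were compared between GENCODE M21 transcripts. Coordinates and promoters are those of RefSeq, GRCm38.p6. The computation was tested on simulated data. With 1 value per gene and group, no difference between groups was tested. Alternatives were other scalings, a pseudocount of 1, other Length references, fold limits and Length limits. Computations ran in scipy 1.17.1 and pandas 2.3.3 under Python 3.11.15 with numpy 2.4.6, and figures were drawn with matplotlib 3.10.9.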

Additional observations from a re-analysis of the deposited data

Results flagged for a closer look

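Among the 7 control libraries, control replicate 3 had the lowest share of clean reads mapped to genes, 64.33%, and the nearest library stood at 74.39%. Its distance from the others, relative to the range of the group, passed Dixon's limit at 95%, which chance passes in about 1 in 20 groups. The library also gave the smallest part of the control counts, 9.12%, and its part in the values of the 38 genes was not tested, because gene values were used as sums over the group.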

How the results depend on the processing

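With the median gene set to 0, the median log2 ratio of all members was 0.039, of sensors 0.39, of factors and targets 0.10, of chaperones 0.052, of degradation genes 0.37, of the translocon -0.24 and of the signal peptidase -0.47, and the upper quartile as scale gave 0.038, 0.39, 0.10, 0.050, 0.37, -0.24 and -0.47. Without the 50 genes of most counts in the total, the medians were 0.10 for all members, 0.45 for sensors, 0.12 for chaperones, 0.44 for degradation genes, -0.17 for the translocon and -0.41 for the signal peptidase. Relative to like Length they were 0.043 for all members, 0.31 for sensors, 0.087 for chaperones, 0.33 for degradation genes and -0.24 for the translocon. With counts per base as scale, chosen after seeing the data, they were 0.35 for all members, 0.70 for sensors, 0.42 for factors and targets, 0.37 for chaperones, 0.69 for degradation genes, 0.078 for the translocon and -0.16 for the signal peptidase. The scalings by the median gene, the upper quartile, the total without 50 genes and counts per base move all genes alike, by -0.16, -0.16, -0.10 and 0.15. The count of higher genes, 14 at 1.2-fold, was 3 at 1.5-fold and 0 at 2-fold, and the count of lower genes, 7, was 6 and 0. At 1.5-fold relative to like Length with 20 classes, added after seeing the data, 1 gene was higher and 1 lower. Other scalings of the counts, chosen after seeing the data, gave 9 higher with the median gene or the upper quartile and 25 with counts per base. All 21 genes called by total counts kept their direction under these scalings, and 15 to 20 of them stayed past 1.2-fold, except that a pseudocount of 1 kept all 21. Signs of 7 genes not called turned with the median gene or the upper quartile, Hspa5, Hsp90b1, Manf, Ssr2, Ssr3, Spcs2 and Spcs3, and that of Serp1 with counts per base. Of 18 genes called relative to like Length, all kept their direction with 10 classes, the 500 nearest genes, other count minimums or classes of level, and 16 to 18 stayed past 1.2-fold. No paired analysis was possible because gene values were used as group sums, and for the same reason no library was left out. Counting error is small at these depths, and the spread between pools sets the precision and is not known here.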
